A study of Mus musculus with 8 samples.

Results

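RNA of 42 genes of skeletal muscle was followed through CT26 tumours and CT26 cultures. The genes encode proteins of the sarcomere, of calcium handling and of muscle energy supply, together with 3 ubiquitin ligase genes of muscle; myosin heavy chain genes are not among them. They were listed by symbol and make up 42 of the 56953 gene identifiers in the table. The list was drawn up with the tumour levels under saline and mLJZD in view. The tumour difference is therefore a description, and calls of the 42 genes in those libraries test nothing. By textbook isoform, 11 of the 42 belong to fast fibres, 6 to slow fibres, and 25 were given no class.

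CT26 is a mouse colorectal carcinoma line. It was sequenced as transplanted tumours given normal saline or the drug mLJZD, and as cultures kept for 48 hours in 10% control serum or 10% serum containing mLJZD. The labels do not expand mLJZD, and they give no strain, age, dose or site of transplantation for the animals. Each of the 4 groups had 2 libraries, and no label states that these were independent animals or dishes. A p-value here therefore reflects library-to-library spread alone, which may be technical.

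A sarcomere is the repeating unit of striated muscle, in which myosin thick filaments pull on actin thin filaments anchored at Z discs. Contraction starts when the voltage sensor of the T tubule opens the calcium release channel of the sarcoplasmic reticulum, calcium binds troponin C, and the troponin complex moves tropomyosin off the actin sites; the SERCA pump then takes the calcium back. Fast and slow fibres build this machine from different isoforms of many of the same proteins, and parvalbumin, a soluble calcium buffer, is typical of fast fibres.

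Promoters of 4 of the genes are shown to set genes that stood far lower in mLJZD tumours, muscle creatine kinase (Ckm) and the fast SERCA pump (Atp2a1), beside slow fibre genes that did not, slow troponin T (Tnnt1) and calsarcin 1 (Myoz2). Each sequence covers the 250 bases before the RefSeq start, on the gene's strand, in build GRCm38.p6. Ckm lies at chr7:19410844-19411093 on the plus strand, Atp2a1 at chr7:126463074-126463323, Tnnt1 at chr7:4515976-4516225 and Myoz2 at chr3:123034988-123035237, the last 3 on the minus strand. Capitals mark matches to the E-box CANNTG, the site class of the myogenic MyoD factors, and to the MEF2 consensus, the site class of another muscle factor family.
Ckm: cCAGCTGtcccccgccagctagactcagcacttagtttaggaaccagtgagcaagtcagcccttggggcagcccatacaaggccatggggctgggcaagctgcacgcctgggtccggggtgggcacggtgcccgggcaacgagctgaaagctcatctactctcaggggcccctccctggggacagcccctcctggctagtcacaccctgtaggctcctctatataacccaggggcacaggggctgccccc
Atp2a1: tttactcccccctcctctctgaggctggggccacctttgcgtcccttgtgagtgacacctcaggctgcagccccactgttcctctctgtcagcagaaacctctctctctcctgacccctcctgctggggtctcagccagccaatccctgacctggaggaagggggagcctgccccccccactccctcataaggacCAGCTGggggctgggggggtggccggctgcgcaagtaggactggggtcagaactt
Tnnt1: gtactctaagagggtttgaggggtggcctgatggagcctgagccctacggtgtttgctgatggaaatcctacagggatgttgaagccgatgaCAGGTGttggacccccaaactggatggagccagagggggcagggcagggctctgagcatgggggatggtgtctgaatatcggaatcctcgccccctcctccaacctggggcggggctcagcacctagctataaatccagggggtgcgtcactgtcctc
Myoz2: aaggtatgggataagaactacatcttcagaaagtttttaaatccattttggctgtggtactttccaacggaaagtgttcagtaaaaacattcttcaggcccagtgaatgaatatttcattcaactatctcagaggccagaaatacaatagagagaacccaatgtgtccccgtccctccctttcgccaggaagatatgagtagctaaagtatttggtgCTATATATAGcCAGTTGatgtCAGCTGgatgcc
The E-box variant CAGCTG, a subset of CANNTG, was present in the windows of Ckm, Atp2a1 and Myoz2 and absent from that of Tnnt1. The MEF2 match in the Myoz2 window lay directly before a CANNTG match. RefSeq promoters matched 32 of the 42 genes, with 37 windows. Searched on both strands, CANNTG was in 33 windows (89.2%, against 66.2% of 32851 windows of all genes), CAGCTG in 19 (51.4%, against 13%) and MEF2 in 6 (16.2%, against 2.92%). CAGCTG was in 4 of 8 windows of fast genes and in 4 of 7 windows of slow genes. A match describes these letters and no binding.

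Library totals ran from 16594912 to 29363861 counts, and 3 counts, taken as the floor for a gene at 0, correspond to 0.102 to 0.181 CPM (counts scaled to the library total). Of 8 markers of intestinal epithelium, chosen after their values were seen, Krt20 stood at 141 to 276 CPM in the 8 libraries, Epcam and Vil1 stayed under 1 CPM, Krt19 under 2 CPM and Cdh1 under 5 CPM, and Cdx2, an intestinal transcription factor, had no count in the tumours. The paired keratins Krt18 and Krt8 were lower under mLJZD in the tumours, as the muscle genes were: Krt18 read 16.6 and 15.8 CPM against 1.86 and 2.23 CPM, with 29.2 to 39.0 CPM in the cultures, and Krt8 read 2.39 and 3.28 CPM against 0.273 and 0.362 CPM. Krt20 differed by less, at 276 and 271 CPM under saline against 175 and 176 CPM under mLJZD. Cdh1 went the other way, at 2.95 and 3.28 CPM under saline against 4.75 and 3.98 CPM under mLJZD. The part of epithelial RNA in the muscle result was not tested. Among the muscle genes 41 had counts in both saline tumours, and 17 to 19 of the 42 were at 0 in a culture library. The missing one, fast troponin C (Tnnc2), had no count in any tumour and 1 count in 1 control culture. In GENCODE M21, 74% of its 800 exonic bases lie on the opposite strand of Ube2c, a cell cycle gene at 179 to 198 CPM in the tumours, and what this overlap does to the count of Tnnc2 was not tested. Myoglobin (Mb) shares 31.9% of its exonic bases with Gm49540, which had no count, and the other members share less than 22%.

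The muscle genes took a larger share of the RNA in saline tumours than in mLJZD tumours. Together they held 0.345% and 0.346% of all counts in the saline libraries and 0.0850% and 0.0838% in the mLJZD libraries. The fast genes carried 0.138% ± 0.00127 (SD, n = 2) under saline and 0.0235% ± 0.00044 under mLJZD, whereas the slow genes carried 0.00265% and 0.00231%. In bulk RNA, fewer muscle cells and less RNA per muscle cell cannot be told apart. Of the 41 genes with enough counts, 36 had both mLJZD tumours below both saline tumours and 4 had them above, while over all 15417 genes fitted 36.6% lay below and 27.9% above. The edgeR fit at an adjusted p under 0.05 put 35 of the 41 lower and 1, Tnnt1, higher, beside 16% and 15.4% of all genes. At least 2-fold lower were 31 of the muscle genes and 2.73% of all genes. The median log2 fold change was -2.13 for the muscle genes, -2.28 for the 10 fast ones and 0.39 for the 6 slow ones, and 0.00 over all genes. Since these libraries chose the list, these counts test nothing, and the genes are described below by their levels.

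**Figure D1:**
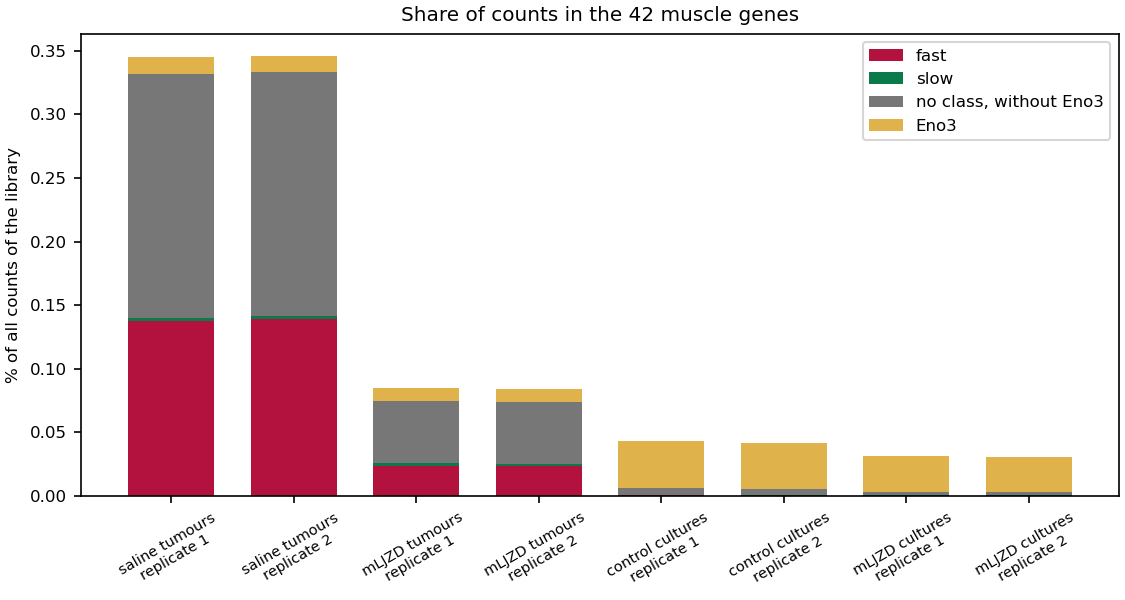
Percent of all counts of each library (bar height, linear axis from 0) in the 42 muscle genes, split into fast, slow, no class without Eno3, and Eno3. The saline tumours reach 0.345% and 0.346%, the mLJZD tumours 0.0850% and 0.0838%, and the culture bars consist mostly of Eno3.

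The thin filament genes split by isoform: of 8 with counts, 5 had both mLJZD tumours below both saline tumours and 3 had them above. Skeletal alpha-actin (Acta1, ENSMUSG00000031972), the main actin of the filament, stood at 808 and 817 CPM in saline tumours and at 178 and 176 CPM in mLJZD tumours (log2 fold change -2.16, SE 0.04). It was the most abundant of the 42 genes per kilobase of transcript in both tumour groups. Fast troponin T (Tnnt3), which ties the complex to tropomyosin, read 163 and 167 CPM under saline against 37.7 and 31.5 CPM under mLJZD (log2 -2.22, SE 0.07). Fast troponin I (Tnni2), the inhibitory subunit, read 90.7 and 88.7 CPM against 22.5 and 25.2 CPM (log2 -1.88, SE 0.06). For each of these 3 genes both saline libraries lay far above both mLJZD libraries.

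The slow troponins stood apart from their fast partners. Slow troponin T (Tnnt1, ENSMUSG00000064179) read 1.27 and 1.26 CPM in saline tumours and 2.95 and 2.41 CPM in mLJZD tumours (log2 1.11, SE 0.31), from 25 and 25 counts against 54 and 40. The mLJZD libraries were higher, the opposite order to Tnnt3. With any of the 4 tumour libraries left out the log2 value lay between 0.95 and 1.27, and it was no longer past the threshold, as also with DESeq2 and in the fit of all 8 libraries. Slow troponin C (Tnnc1), the calcium sensor of slow fibres and heart, read 2.03 and 1.72 CPM under saline and 2.89 and 3.13 CPM under mLJZD (log2 0.71, SE 0.28). Slow troponin I (Tnni1) read 1.93 and 2.02 CPM against 2.35 and 2.35 CPM (log2 0.28, SE 0.29). For both genes the mLJZD libraries lay above the saline libraries, by 1 SE or less for Tnni1.

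Beta-tropomyosin (Tpm2), which lies along actin and blocks it at rest, differed less between the groups than the fast troponins. It read 93.5 and 104 CPM in saline tumours and 74.7 and 76.2 CPM in mLJZD tumours (log2 -0.36, SE 0.06), with no overlap. Nebulin (Neb), the giant protein that runs along the thin filament, was among the lower genes, with 85.2 and 82.6 CPM against 18.7 and 18.6 CPM (log2 -2.14, SE 0.07).

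**Figure D2:**
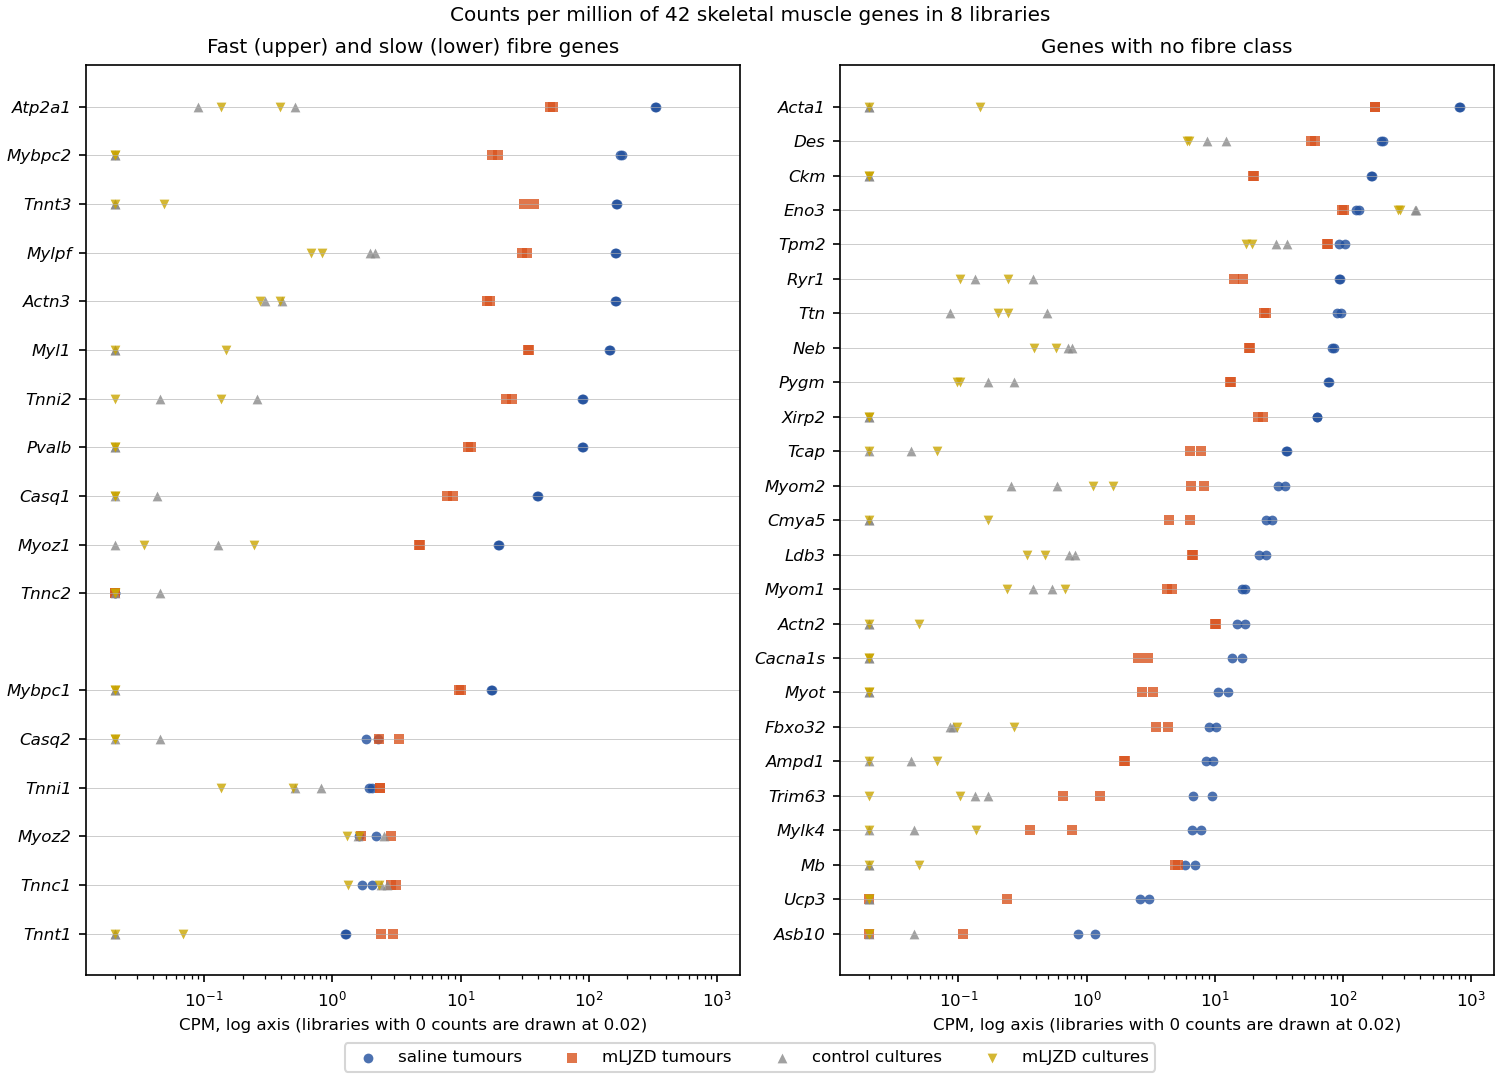
Level in CPM on a log axis for each of the 42 genes in the 8 libraries, with fast genes in the upper and slow genes in the lower part of the left panel; libraries with 0 counts are drawn at 0.02. The saline points of the fast genes lie well to the right of the mLJZD points, while for 5 of the 6 slow genes the tumour points lie between 1 and 4 CPM and mix or change order.

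All 8 thick filament and M-band genes had both mLJZD tumours below both saline tumours. The fast regulatory light chain (Mylpf), which sits on the myosin neck, read 161 and 164 CPM under saline against 30.2 and 32.8 CPM (log2 -2.33, SE 0.05). The fast essential light chain (Myl1) read 143 and 146 CPM against 34.2 and 33.4 CPM (log2 -2.06, SE 0.05). Fast myosin-binding protein C (Mybpc2), which regulates the myosin heads, read 177 and 181 CPM against 19.6 and 17.7 CPM (log2 -3.22, SE 0.06). The slow paralogue of the last gene had the smallest difference of the 8. Slow myosin-binding protein C (Mybpc1) read 17.6 and 17.2 CPM in saline tumours and 10.1 and 9.76 CPM in mLJZD tumours (log2 -0.78, SE 0.12). It was the one slow gene with both mLJZD libraries below the saline ones, and it kept 57.1% of its saline level where Mybpc2 kept 10.4%.

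The myosin light chain kinase family gene Mylk4 had the largest fitted difference of the thick filament set. It read 6.65 and 7.78 CPM under saline, from 131 and 154 counts, and 0.764 and 0.362 CPM under mLJZD, from 14 and 6 counts (log2 -3.61, SE 0.30). Titin (Ttn), the spring between Z disc and M band, and the M-band crosslinkers Myom1 and Myom2 had log2 fold changes of -1.89, -1.88 and -2.13. Myom2 read 35.3 and 30.9 CPM under saline and 8.19 and 6.51 CPM under mLJZD. Titin has a long transcript, of 106824 bases, and it ranked 38 of 42 per kilobase in saline tumours despite 95.8 and 90.6 CPM.

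At the Z disc 9 of 10 genes had both mLJZD tumours below both saline tumours. Alpha-actinin 3 (Actn3, ENSMUSG00000006457), the crosslinker found in fast fibres, read 163 and 159 CPM in saline tumours and 15.9 and 16.9 CPM in mLJZD tumours (log2 -3.26, SE 0.06), the largest difference of the fast genes. Alpha-actinin 2 (Actn2), made in all fibres, read 17.1 and 14.95 CPM against 10.3 and 10.0 CPM (log2 -0.62, SE 0.13). The actinin of fast fibres thus kept 10.2% of its saline level and the general one 63.4%.

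The calsarcins, Z-disc proteins that bind calcineurin, showed the same split. Calsarcin 2 of fast fibres (Myoz1) read 19.96 and 19.6 CPM under saline and 4.80 and 4.76 CPM under mLJZD (log2 -2.01, SE 0.13). Calsarcin 1 of slow fibres and heart (Myoz2, ENSMUSG00000028116) read 1.62 and 2.17 CPM against 2.89 and 1.69 CPM (log2 0.31, SE 0.33), with overlapping libraries. Myoz1 thus kept 24.2% of its saline level and Myoz2 121%. The other 6 Z-disc genes had log2 fold changes from -2.33 for telethonin (Tcap), which caps titin, to -1.43 for the Xin repeat gene Xirp2. Between them lay desmin (Des), the intermediate filament that ties Z discs together, myotilin (Myot), the PDZ-LIM protein gene Ldb3 and the myospryn gene Cmya5. Des itself read 199 and 207 CPM against 56.4 and 60.7 CPM.

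Among the 6 calcium genes the pump, the channel, the sensor, the buffer and the fast store protein were lower in both mLJZD libraries, and the slow store protein was not. The SERCA1 pump (Atp2a1, ENSMUSG00000030730), which refills the reticulum in fast fibres, read 328 and 337 CPM in saline tumours and 52.2 and 50.02 CPM in mLJZD tumours (log2 -2.67, SE 0.06). Parvalbumin (Pvalb) read 90.2 and 88.8 CPM against 12.1 and 11.5 CPM (log2 -2.89, SE 0.07). Calsequestrin 1 (Casq1), which stores calcium in the reticulum of fast fibres, read 39.6 and 40.0 CPM against 8.79 and 7.83 CPM (log2 -2.22, SE 0.10). None of these 3 had overlapping libraries. Calsequestrin 2 (Casq2), the slow and cardiac form, read 2.29 and 1.82 CPM under saline and 2.29 and 3.31 CPM under mLJZD (log2 0.47, SE 0.29), from 45 and 36 counts against 42 and 55, with the groups barely apart. The release channel Ryr1 and its voltage sensor Cacna1s, which belong to no fibre class, had log2 fold changes of -2.59 (SE 0.07) and -2.42 (SE 0.17).

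All 6 metabolic genes had both mLJZD tumours below both saline tumours, over a wide range. Ckm (ENSMUSG00000030399), which buffers ATP at the myofibril, read 167 and 166 CPM in saline tumours and 20.3 and 19.9 CPM in mLJZD tumours (log2 -3.02, SE 0.05). Mb, the oxygen store of oxidative fibres and heart, read 7.01 and 5.91 CPM against 5.18 and 4.88 CPM (log2 -0.33, SE 0.18). Beta-enolase (Eno3, ENSMUSG00000060600), a glycolytic enzyme, read 134 and 128 CPM against 102 and 98.3 CPM (log2 -0.35, SE 0.05). These 3 genes differed between the groups by very different distances. Uncoupling protein 3 (Ucp3), a mitochondrial carrier of muscle, read 3.10 and 2.63 CPM under saline, and 0 and 0.241 CPM under mLJZD, where it had 0 and 4 counts (log2 -4.53, SE 0.59). Glycogen phosphorylase (Pygm), which releases glucose units from glycogen, and AMP deaminase (Ampd1) had log2 fold changes of -2.50 and -2.17.

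All 3 ubiquitin ligase genes had both mLJZD tumours below both saline tumours. The MuRF1 gene Trim63, a marker of muscle atrophy, read 9.45 and 6.77 CPM in saline tumours and 0.655 and 1.27 CPM in mLJZD tumours (log2 -3.06, SE 0.29). Atrogin-1 (Fbxo32), the other classical atrophy ligase, read 10.2 and 9.04 CPM against 4.31 and 3.50 CPM (log2 -1.26, SE 0.17). Asb10, an ankyrin repeat and SOCS box gene, had 23 and 17 counts under saline and 2 and 0 under mLJZD, a ratio of 17.7 (95% exact interval 4.59 to 151, counting error only).

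**Figure D3:**
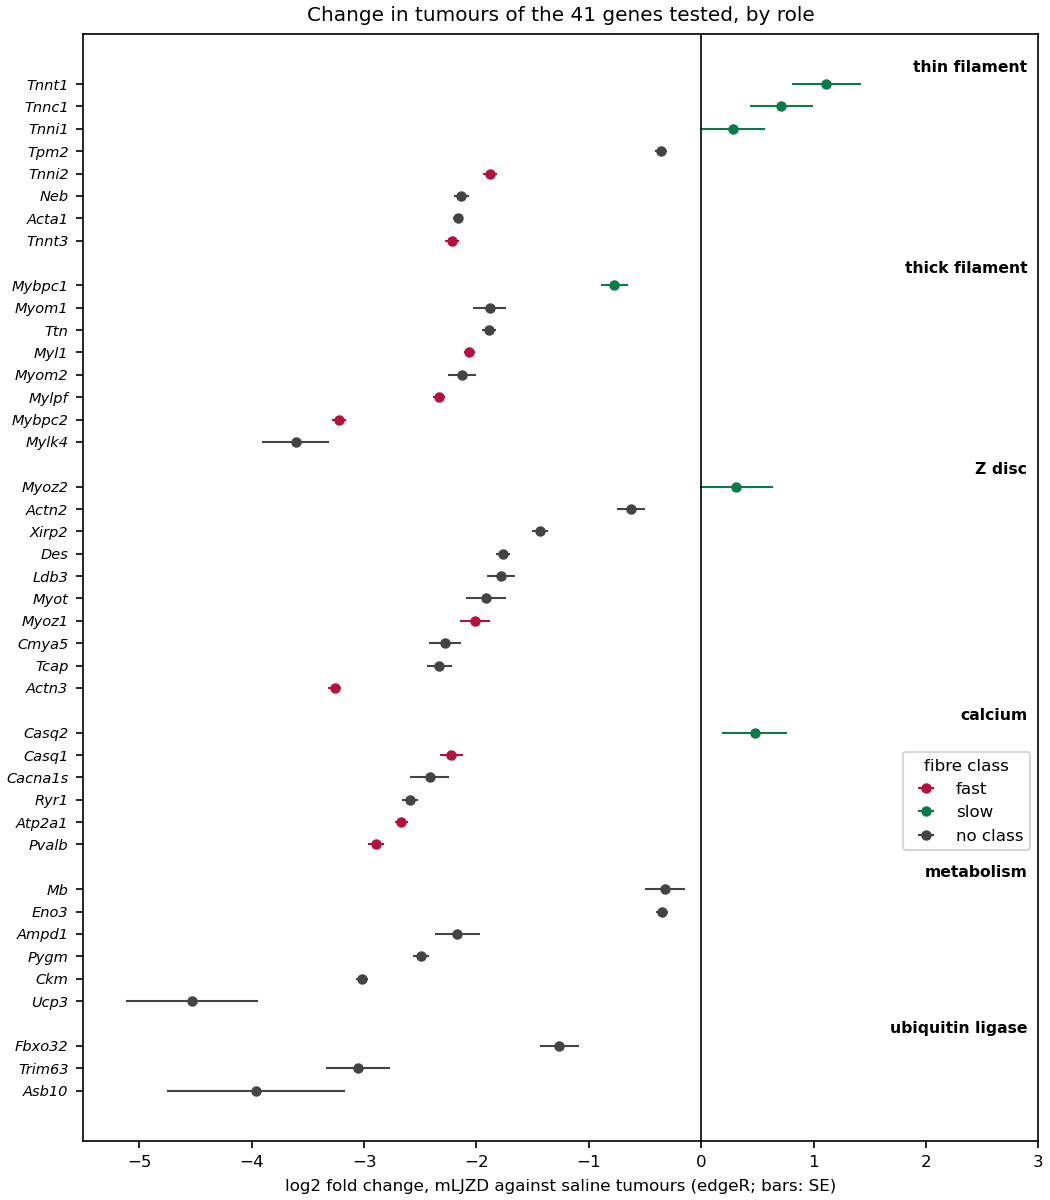
Fitted log2 fold change (points) with SE (bars) of mLJZD against saline tumours for the 41 genes tested, grouped by role and coloured by fibre class, on a linear axis. The fast genes lie between -3.26 and -1.88, the slow genes between -0.78 and 1.11, and the widest bars belong to Asb10 and Ucp3, which had 2 and 4 counts in mLJZD tumours.

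Set against their saline level, the fast genes kept 10.2% (Actn3) to 26.6% (Tnni2), the slow genes 57.1% (Mybpc1) to 212% (Tnnt1), and the genes with no class 4.21% (Ucp3) to 77.9% (Mb). In all, 31 of the 41 genes kept less than 50%. The 10 that kept more were the 6 slow genes together with Actn2, Tpm2, Eno3 and Mb. Some of them were also present in control cultures: Eno3 at 368 CPM, Tpm2 at 33.4, Tnnc1 at 2.52, Myoz2 at 2.05 and Tnni1 at 0.662 CPM. Casq2 had 1 count there, and Tnnt1, Mybpc1, Actn2 and Mb had none. The part of RNA from CT26 cells in the levels kept was not tested. The slow genes were also the rarer ones: per kilobase, Mybpc1 led them with rank 25 of the 42 in saline tumours, and Myoz2 and Casq2 ranked 40 and 39.

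Within pairs of fast and slow isoforms, the fast share of counts per kilobase was lower in both mLJZD libraries for each of the 5 pairs that could be read. For troponin I (Tnni2/Tnni1) it was 99.1% and 99.1% in saline tumours and 95.9% and 96.3% in mLJZD tumours. For troponin T (Tnnt3/Tnnt1) it was 99.2% and 99.2% against 92.6% and 92.8%. For myosin-binding protein C (Mybpc2/Mybpc1) it was 91.6% and 92.0% against 67.9% and 66.3%, the lowest of the pairs. For the calsarcins (Myoz1/Myoz2) it was 95.8% and 94.4% against 75.7% and 84.1%, and for the calsequestrins (Casq1/Casq2) 96.0% and 96.8% against 84.1% and 76.6%, both with wide scatter under mLJZD. Summed over the 5 pairs, the fast share was 97.7% ± 0.02 (SD, n = 2) under saline and 89.8% ± 0.20 under mLJZD. The RNA of these pairs was still mostly of the fast form in both groups. In the cultures, which hold no host tissue, the slow partner Myoz2 read 1.29 to 2.52 CPM and Tnni1 0.136 to 0.811 CPM. The part of such RNA from CT26 cells in the tumour shares was not tested. On counts without length, the myosin-binding protein C pair had fast shares of 90.9% (95% exact interval 89.97 to 91.8) and 91.3% (90.4 to 92.2) under saline, and of 66.1% (61.9 to 70.0) and 64.5% (59.9 to 68.9) under mLJZD. The troponin C pair gave no such share, since Tnnc2 was at 0.

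**Figure D4:**
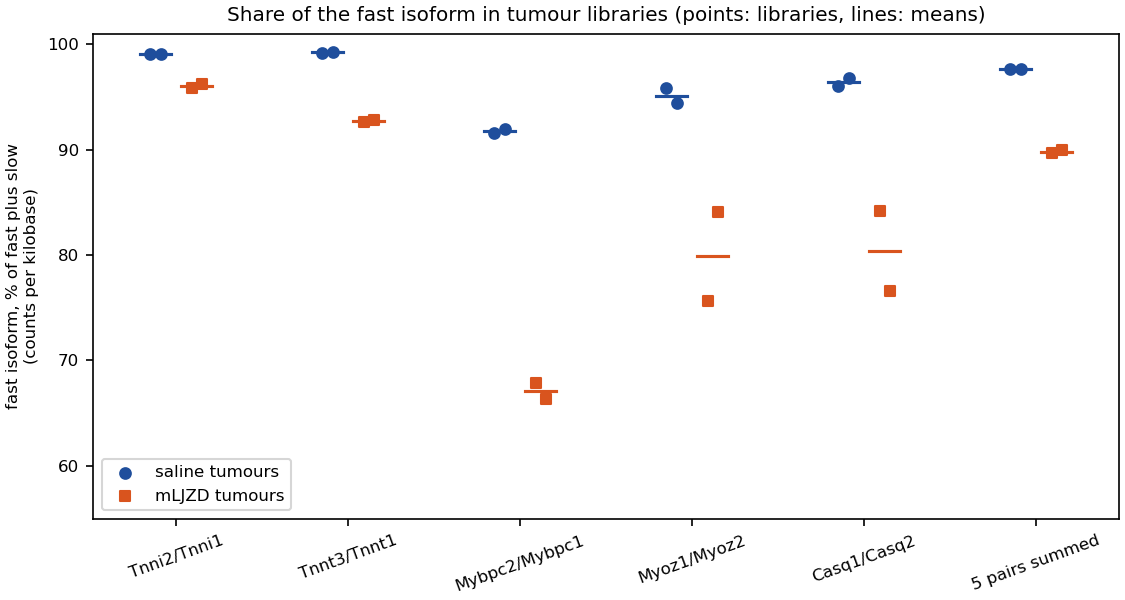
Fast isoform as a percent of fast plus slow, from counts per kilobase, for 5 isoform pairs and their sum in the 4 tumour libraries; points are libraries and lines group means, and the axis starts above 0. Saline points lie above mLJZD points in every pair, with the widest gap in Mybpc2/Mybpc1.

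Other genes of the same muscle pathways, from lists drawn up with earlier results known, were also lower for the most part. They belong to the same tissue and were read in the same libraries, so their calls are no separate test of the muscle difference. Of 24 tested contractile and Z-disc genes outside the 42, 19 were called lower and 1 higher, beside 16% and 15.4% of all genes. The same shares of all genes apply to the muscle lists below. The median log2 fold change of the 24 was -1.26. The 2 most abundant in saline tumours differed less than that: filamin C (Flnc) stood at 187 ± 4.34 CPM (SD, n = 2) against 161 ± 4.204 CPM, and cofilin 2 (Cfl2) at 42.5 ± 1.66 against 43.8 ± 2.48 CPM. Flnc and Cfl2 were also plentiful in control cultures, at 391 and 56.3 CPM. The exception upwards was Csrp3, the muscle LIM protein of the Z disc, at 3.04 ± 0.37 CPM under saline and 6.57 ± 0.51 CPM under mLJZD.

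Of 18 tested excitation and calcium genes outside the 42, 15 were called lower and none higher by edgeR, with a median of -1.77; none was higher at an unadjusted p under 0.05 or with DESeq2. Sarcalumenin (Srl), a calcium-binding protein of the reticulum, stood at 35.7 ± 3.82 CPM under saline and 11.3 ± 2.17 CPM under mLJZD. The SERCA2 pump (Atp2a2), which serves slow fibres, heart and most other cells, stood at 528 ± 19.3 and 506 ± 9.94 CPM and was not called (log2 -0.03, SE 0.04). The acetylcholine receptor subunit Chrnb1 stood at 25.0 ± 0.02 and 21.2 ± 0.43 CPM and was not called either. Of 18 tested metabolic genes, 15 were called lower and none higher by edgeR, nor at an unadjusted p under 0.05 or with DESeq2, with a median of -1.28. Muscle phosphofructokinase (Pfkm) stood at 105 ± 1.92 and 47.8 ± 3.09 CPM. The muscle adenylosuccinate synthase (Adssl1) stood at 22.01 ± 0.24 and 13.4 ± 1.61 CPM. Phka1, a phosphorylase kinase subunit, stood at 21.8 ± 1.01 and 17.8 ± 1.79 CPM and was not called. Most of the genes named here were also plentiful in control cultures: Atp2a2 at 284 CPM, Pfkm at 72.3, Adssl1 at 26.9, Phka1 at 25.9 and Chrnb1 at 19.9 CPM. Srl stood at 3.22 CPM there.

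Markers of other tissues that can lie beside muscle were measured in the same libraries. For these and the marker lists that follow, calls by edgeR stand beside 16% of all genes lower and 15.4% higher. Summed over 6 tendon markers, the level was 119 to 123 CPM in saline tumours and 67.7 to 69.0 CPM in mLJZD tumours, with 2 of 4 tested genes called lower. The 8 Schwann cell markers summed to 58.4 to 58.7 CPM against 34.7 to 35.5 CPM, with 2 of 4 tested genes lower and 1 higher, Pmp2 at 0 in both groups and the defining factor Sox10 at 0 under mLJZD. The 10 adipocyte markers summed to 79.4 to 79.6 CPM against 59.9 to 61.3 CPM, with 3 of 4 tested genes lower; Lep, Retn and Ucp1 were at 0 in both groups and Adipoq, Plin1 and Cidec at 0 in mLJZD tumours as well. These 3 sums moved in the direction of the muscle genes, and their part in the muscle result was not tested. Single genes, named after their values were seen, carried much of them: Thbs4 stood at 109 ± 4.01 CPM (SD, n = 2) under saline and 58.0 ± 1.00 CPM under mLJZD, Prx at 49.7 ± 0.11 and 26.1 ± 0.32 CPM, and Car3, which muscle also expresses, at 21.7 ± 1.44 and 8.996 ± 0.71 CPM. The tendon gene Tnmd (0.760 and 0.741 CPM) and the adipocyte gene Fabp4 (46.2 and 46.0 CPM) were near equal in the 2 groups.

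Other marker sums differed less or were higher under mLJZD. The 8 endothelial markers summed to 221 to 224 CPM and 225 to 230 CPM, with 0 of 8 genes called by edgeR or DESeq2 and 1 higher at an unadjusted p under 0.05. The 8 smooth muscle markers summed to 90.8 to 91.2 CPM and 79.0 to 85.5 CPM, with 1 of 6 tested genes lower. Macrophage markers summed to 1307 to 1322 CPM against 1116 to 1164 CPM, with 3 of 8 genes lower and 2 higher. Fibroblast markers were higher in mLJZD tumours, 1310 to 1319 CPM against 1705 to 1751 CPM, with 4 of 8 genes called higher and 1 lower. Erythroid markers were also higher, at 18.2 to 22.2 CPM against 43.7 to 47.0 CPM, with all 5 tested genes called. Heart markers summed to 34.0 to 35.7 CPM and 45.9 to 48.5 CPM, with 1 of 3 tested genes higher, 2 lower, and the atrial genes Myl7 and Nppa at 0 in every tumour. The higher one was Nppb, at 17.6 CPM under saline and 37.9 CPM under mLJZD. The lower ones were Tnnt2, at 7.67 and 3.77 CPM, and Myl4, at 9.35 and 5.14 CPM. Tnnt2 stood at 53.0 CPM in control cultures. Keratinocyte markers stayed under 7 CPM in all 4 tumours, with 1 of 2 tested genes higher and Krt5, Krt15, Krt1, Flg2 and Dsg3 at 0. DESeq2 called 3287 of the 15417 genes fitted, 50.11% of these higher. With DESeq2 the Schwann list had 1 gene lower and 0 higher, and the keratinocyte list 0 higher. The fibroblast list had 4 higher and 0 lower, and the erythroid list 4 higher.

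The cultures, which hold no host tissue, served as the blank, the level read without muscle. The 42 genes together held 0.0429% and 0.0418% of the counts in control cultures and 0.0313% and 0.0303% in mLJZD cultures. Most of this was Eno3: without it the shares were 0.00556% ± 0.00075 (SD, n = 2) and 0.00338% ± 0.00007, against 0.333% in saline tumours and 0.0744% in mLJZD tumours. Fast genes held 0.000297% and 0.000166%. Pvalb, Mybpc2, Ckm, Mybpc1, Xirp2, Cacna1s, Myot and Ucp3 had no count in any culture.

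Most fast genes stood at or near 0 in the cultures. Atp2a1 read 0.512 and 0.0901 CPM with control serum and 0.391 and 0.136 CPM with mLJZD serum. Actn3 read 0.299 and 0.405 CPM against 0.391 and 0.272 CPM, Tnni2 0.256 and 0.0451 CPM against 0 and 0.136 CPM, and Myoz1 0.128 and 0 CPM against 0.245 and 0.0341 CPM. In each of these the groups overlapped. Casq1 had 1 count, in control replicate 1, Tnnc2 had 1 in control replicate 2, and Tnnt3 had 1 count and Myl1 and Acta1 had 0.147 CPM, all in mLJZD replicate 1 and nowhere else. Of the slow genes, Tnnt1 had 2 counts in mLJZD replicate 2 and Casq2 had 1 count in control replicate 2. Actn2 and Mb had 1 count each, in mLJZD replicate 1, Asb10 had 1 in control replicate 2, and Mylk4 had 1 in control replicate 2 and 4 in mLJZD replicate 2.

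Enough counts for a test were present for 11 of the 42 genes, so the counts that follow cover those 11 and not the list. With mLJZD serum 4 fell and 1 rose, while over all 13299 genes tested 26.6% were called lower and 28.8% higher (edgeR, adjusted p under 0.05). Eno3 read 368 and 368 CPM in control cultures and 279 and 270 CPM in mLJZD cultures (log2 -0.48, SE 0.07, edgeR adjusted p = 4.71e-05). Once a trend with transcript length and GC content was removed, the log2 fold change of Eno3 was -0.06 and the call was gone (edgeR adjusted p = 0.506). Tpm2 read 36.8 and 30.01 CPM against 17.6 and 19.6 CPM, lower in both mLJZD libraries (log2 -0.90, SE 0.13, edgeR adjusted p = 3.25e-05).

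The other 3 calls rested on single libraries at some point. Desmin read 12.3 and 8.74 CPM with control serum and 6.31 and 6.06 CPM with mLJZD serum (log2 -0.82, SE 0.19, edgeR adjusted p = 0.00226). Without control culture replicate 1 it was not called (edgeR adjusted p = 0.0529). Mylpf, the one fast gene with enough counts, read 2.13 and 1.98 CPM against 0.832 and 0.681 CPM, lower in both libraries (log2 -1.51, SE 0.42, edgeR adjusted p = 0.00682; 0.0554 without mLJZD culture replicate 2). Myom2 went the other way, with 0.256 and 0.586 CPM against 1.61 and 1.12 CPM, higher in both libraries (log2 1.63, SE 0.55, edgeR adjusted p = 0.0218). That call was lost without control culture replicate 1 (edgeR adjusted p = 0.172), without mLJZD culture replicate 1 (0.182) and with the length and GC trend removed (0.0732).

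The 6 genes that were tested and not called included the slow genes Tnnc1, Myoz2 and Tnni1. Tnnc1 read 2.39 and 2.66 CPM in control cultures and 2.30 and 1.33 CPM in mLJZD cultures (log2 -0.56, SE 0.37, edgeR adjusted p = 0.218). Myoz2 read 2.52 and 1.58 CPM against 1.61 and 1.29 CPM (log2 -0.56, SE 0.39, edgeR adjusted p = 0.242). Tnni1 read 0.512 and 0.811 CPM against 0.489 and 0.136 CPM (log2 -1.22, SE 0.69, edgeR adjusted p = 0.154). Libraries overlapped for Myoz2 and not for the other 2 genes; of all genes tested, 35.4% had both mLJZD cultures below both control cultures and 42% had them above. Ldb3, Neb and Myom1, with log2 fold changes of -0.93, -0.64 and -0.13, were not called; with the length and GC trend removed Neb was called lower (log2 -1.94, edgeR adjusted p = 0.0119), and in the fit of all 8 libraries Ldb3 was (log2 -0.99, edgeR adjusted p = 0.0309).

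**Figure D5:**
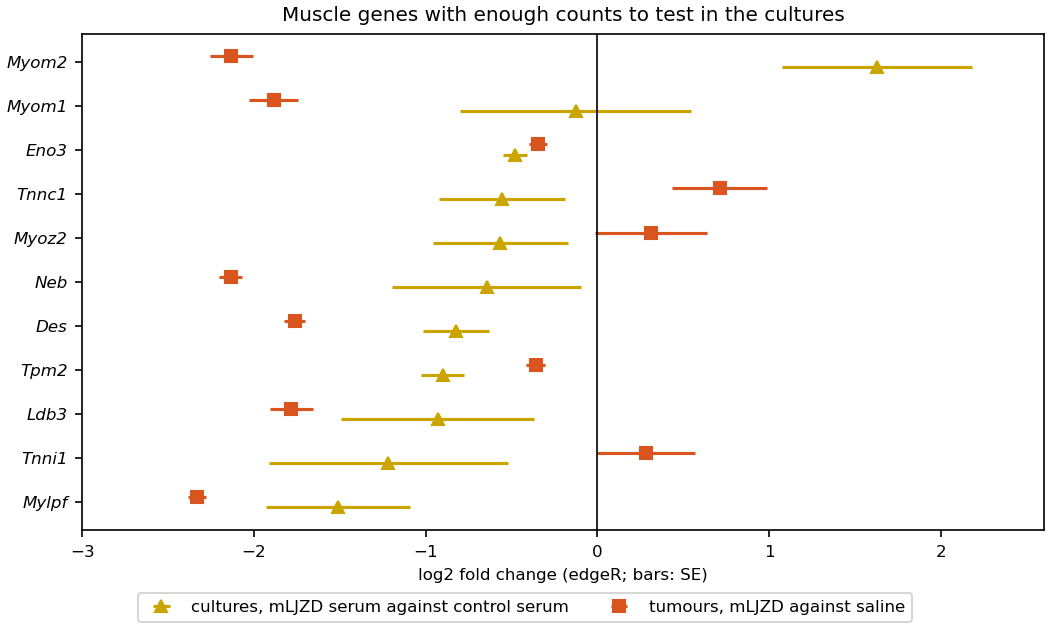
Fitted log2 fold change (symbols) with SE (bars) under mLJZD for the 11 muscle genes that could be tested in cultures, drawn for cultures and for tumours on a linear axis. Mylpf, Des, Tpm2 and Eno3 lie below 0 in both, while Myom2 lies at 1.63 in cultures and -2.13 in tumours.

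Saline tumours were set against control cultures to see how far the muscle RNA stood above the blank. The tumour libraries chose the list, and many of the genes had enough counts for the fit only through the tumours, so these values are a description with no p and no count of calls. The median of all 15332 genes fitted was 0.15 on the log2 scale. Acta1, with no count in control cultures, was at least 12354-fold higher in saline tumours, taking a floor of 3 counts over the group. By the same floor Mybpc2 was at least 2719-fold higher, Ckm at least 2535-fold, Tnnt3 at least 2512-fold, Myl1 at least 2198-fold and Pvalb at least 1361-fold. Genes with more counts in the cultures gave fitted log2 differences, of 9.89 (SE 0.16) for Atp2a1, 6.13 (SE 0.09) for Mylpf and 4.11 (SE 0.11) for Des.

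The slow genes fell into those absent from control cultures and those present there. Tnnt1 and Mybpc1 had no count in control cultures and were at least 19.3-fold and at least 265-fold higher in saline tumours. Casq2, with 1 count in control cultures, had a ratio of 93.6 (95% exact interval 16.3 to 3742, counting error only). Tnni1 differed by 1.42 on the log2 scale (SE 0.37), and Tnnc1 and Myoz2 by -0.59 (SE 0.28) and -0.28 (SE 0.34). The tumour levels of Tnnc1 and Myoz2, 1.62 to 3.13 CPM, thus lay beside culture levels of 1.29 to 2.66 CPM. Eno3 stood higher in the cultures, at 131 ± 4.23 CPM in saline tumours and 368 ± 0.28 CPM in control cultures (SD, n = 2; log2 -1.66, SE 0.05).

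The mLJZD tumours, set against mLJZD cultures under the same limits, also held muscle RNA above the blank. Xirp2 was at least 377-fold higher, Ckm at least 334-fold, Mybpc2 at least 311-fold, Pvalb at least 196-fold and Mybpc1 at least 165-fold. Atp2a1 differed by 7.68 on the log2 scale (SE 0.22) and Tnni1 by 2.99 (SE 0.50). Tnnc1 (log2 0.75, SE 0.33) and Myoz2 (log2 0.67, SE 0.36) were again the nearest to the culture level, and Eno3 again stood lower in the tumours (log2 -1.46, SE 0.07).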

How the data were processed

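RNA was measured in 8 libraries of 4 groups. The authors deposited raw counts per gene, as whole numbers for each library. The submitters' processing notes name featureCounts 2.0.3, HISAT2 2.2.1, SAMtools 1.14, FastQC 0.12.1, Trim Galore and the build GRCm39. Not given in the sources used here were the annotation release, strand setting and treatment of multi-mapping reads, so genes that overlap on opposite strands could not be separated. GENCODE M21 gave symbols (52029 identifiers), transcript lengths, GC content and exon overlap, and no coordinates.

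Each comparison was fitted on its 4 libraries with edgeR 4.0.16 in R 4.3.3 (quasi-likelihood F test, two-sided, TMM, filterByExpr, Benjamini-Hochberg over all genes tested, called under 0.05). Standard errors (SE) were taken as the log2 value over the root of its F. The fits were tested on simulated data. A floor of 3 counts over a group replaced a group at 0, and shares and ratios carry 95% exact binomial intervals for counting error only. Motifs were searched in the 250 bases before RefSeq starts. Alternatives were library totals, upper-quartile scaling, DESeq2 1.42.0, no filter, all 8 libraries in 1 fit, each library left out, a replicate block and, for cultures, removal of a length and GC trend by splines.

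The muscle genes, their classes and the lists were chosen with earlier results of these data known. Every library's value is given for all fast and slow genes, Acta1, Ckm, Mb, Ucp3, Asb10, Mylk4, genes with a tumour log2 fold change above -1, and genes called in cultures. Other members are given by range, with some named after their values were seen. Of the other muscle lists the 3 genes highest in saline tumours and those called against the majority are named, except 1 gene that is not reported here. Replicate libraries differed by more than sampling noise (chi-square per gene 2.68 to 11.6) and were kept apart.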

Additional observations from a re-analysis of the deposited data

Results flagged for a closer look

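Among the 11 genes with enough counts to test in the cultures, those are given here for which both mLJZD libraries moved one way in the tumours and the other way in the cultures. Tnnc1 was higher in mLJZD tumours (log2 0.71) and lower in mLJZD cultures (log2 -0.56), a difference of -1.27 between the cultures and the tumours. Tnni1 was likewise higher in tumours (0.28) and lower in cultures (-1.22), a difference of -1.50. Myom2 was lower in tumours (-2.13) and higher in cultures (1.63), a difference of 3.76. None of these differences was tested, since the tumour values helped to choose the genes, and Tnnc1 and Tnni1 were past the threshold in neither comparison. Fbxo32 also had lower CPM in mLJZD tumours and higher CPM in mLJZD cultures, but its culture counts were too few to test. It had 2 and 2 counts with control serum (0.0854 and 0.0901 CPM) against 2 and 8 with mLJZD serum (0.0979 and 0.272 CPM). The first mLJZD culture had no more counts than the controls, and its higher CPM came from a smaller library total. In tumours Fbxo32 read 10.2 and 9.04 CPM under saline against 4.31 and 3.50 CPM under mLJZD.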

How the results depend on the processing

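Over the whole table, the main tumour fit called 4835 genes, library totals 4899 and upper-quartile scaling 4839. DESeq2 called 3287 genes, the fit with no filter 3647 and the fit of all 8 libraries 3410. Under each of these alternatives, which keep every tumour library, 35 muscle genes were called lower in tumours, as in the main fit. Fewer were called lower with either mLJZD tumour library left out. Since these libraries chose the list, these numbers test nothing. The 1 called higher was 0 with DESeq2, in the fit of all 8 libraries and with any tumour library left out. Genes called over the whole table were 1087 to 3536 with a library left out (1087 without mLJZD tumour replicate 1 and 1974 without replicate 2), against 4835. The median log2 fold change of the muscle genes was -2.16 with library totals and -2.09 to -2.04 with a library left out, that of the fast genes -2.35 to -2.25, and that of the slow genes 0.43 to 0.49. In cultures the 1 gene called higher was 0 with the length and GC trend removed. The median of the muscle genes there moved from -0.64 to 0.00 in the fit of all 8 libraries. That fit tested 41 of the 42 genes in place of 11, most with few or no culture counts. It called 5 of them lower and 1 higher in cultures, while 8213 of all 16090 genes fitted were called, 44.98% of these higher. Upper-quartile scaling put the median of all genes in the cultures at -0.12. On TMM effective library sizes the share of counts was 0.337% in saline tumours, 0.0823% in mLJZD tumours and 0.0443% in control cultures. Without length, the summed fast share was 95.3% and 81.8%. The causes of these shifts were not tested where no reason is given.

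Same-numbered libraries did not deviate together (r = -0.106 over 15417 genes in tumours and 0.0226 over 13299 in cultures). With a replicate block 4461 genes were called in tumours and 7343 in cultures, with 35 muscle genes lower and 1 higher in tumours and 4 lower and 1 higher in cultures. A crossed pairing of the tumours, chosen after seeing the data, called 5411 genes and 2 muscle genes higher.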
